A study of Mus musculus with 4 samples.

Results

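Early erythroid cells with little haemoglobin RNA were described in single-cell libraries of femoral bone marrow. The study marked Cxcl12-expressing marrow stromal cells with a tamoxifen-inducible Cre (Cxcl12-iCreER; R26R-tdTomato mice), ablated the marrow of one femur, and sorted tdTomato+ cells 7 days later from ablated (ABL) and contralateral control (CONT) femurs. Tamoxifen was given 7 days before ablation in every group, and the controls carried the same alleles. There were 2 CONT and 2 ABL libraries, 1 pair per biological replicate, made with Chromium chemistry version 2 in replicate 1 and version 3 in replicate 2, which therefore cannot be told apart from the replicate. Ages were not given in the sources used here. The Cre was driven by Cxcl12, a stromal gene, and switched on a tdTomato reporter at the Rosa26 locus that any recombined cell then expresses. The sort was meant for mesenchymal cells, so the erythroid cells lie outside the labelled cell type.

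The cells were chosen by a rule on measured transcripts: at least 1 UMI (a counted RNA molecule) of Klf1 and at least 2 of Car1, under 20% of UMIs from the 4 adult globin genes Hba-a1, Hba-a2, Hbb-bs and Hbb-bt, and at most 1 UMI of the stromal gene Adipoq. This selected 73 of 9795 called cells, 0.745% of the series, namely 36 from CONT and 10 from ABL for replicate 1, then 7 from CONT and 20 from ABL for replicate 2. They held a median of 16246, 23975, 49555 and 29782 UMIs per cell in that order, and 259773 to 757792 UMIs summed per library, so that 3 UMIs amounted to 3.96 to 11.5 per 1000000 of all their UMIs. Below, a level is the number of UMIs of a gene per 1000000 UMIs of all genes outside the 7 genes of the rule (CPM), and levels are given for CONT and ABL of replicate 1, then CONT and ABL of replicate 2. Contralateral femurs of the same mice should match in sex-linked RNA, and neither replicate did. Xist, the X-inactivation transcript, was read in stromal cells at 561, 765, 796 and 0.692 CPM and in early erythroid cells at 489.5, 942, 925 and 1.37 CPM. The Y-linked Eif2s3y was read in early erythroid cells at 31.8, 0, 0 and 53.3 CPM and in stromal cells at 21.5, 7.56, 9.5 and 38.4 CPM, so that CONT was higher in replicate 1 and ABL in replicate 2. In ABL of replicate 2 Xist was at or near 0 in every class of cells, and sex and ablation cannot be told apart in that replicate. The study pooled several mice for replicate 1.

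Red cells form from marrow progenitors that pass through erythroid colony-forming stages and then through erythroblasts, which fill with haemoglobin, condense the nucleus and expel it. GATA1, TAL1, LMO2, LDB1 and KLF1 drive the erythroid genes, erythropoietin acts through its receptor EPOR to keep the cells alive, and iron enters through the transferrin receptor TFRC. Haem is built from glycine and succinyl-CoA by a chain of enzymes that starts with ALAS2. Cells before the haemoglobin stages divide fast and make many ribosomes.

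The label was checked against its 4 marker genes, of which Klf1 and Car1 (carbonic anhydrase 1) had chosen the cells and support nothing. Gfi1b, which encodes a transcriptional repressor of erythroid and megakaryocytic cells, was read at 105 CPM in CONT and 105 CPM in ABL for replicate 1, then 76.8 CPM in CONT and 91.6 CPM in ABL for replicate 2. Granulocyte precursors, taken as cells with at least 10 UMIs of Mpo, Elane, Prtn3 and Ctsg together, had 1.29, 3.57, 0 and 5.8 CPM, and Adipoq-positive stromal cells had 9.87, 7.79, 1.1 and 2.42 CPM. Every library thus held more Gfi1b in the early erythroid cells than in either class. Gfi1b did not set them apart from late erythroblasts (cells with 20% or more haemoglobin UMIs), which had 104, 155, 109 and 74.4 CPM. Pklr, the pyruvate kinase of red cells and liver at chr3:89136142-89146784 (mm10), was read at 69.9 CPM in CONT and 48.5 CPM in ABL for replicate 1, then 82.5 CPM in CONT and 42.4 CPM in ABL for replicate 2. Its highest value in granulocyte precursors or stromal cells was 3.54 CPM. The erythroid regulator Gata1 was read at 145, 138, 117 and 134 CPM, against 0 to 5.35 CPM in granulocyte precursors and 1.73 to 15.4 CPM in stromal cells. After every cell was thinned to 2700 UMIs, a Gata1 UMI remained in 12 of 36, 4 of 10, 0 of 7 and 5 of 20 early erythroid cells, and 3.85% or fewer of granulocyte precursors and 0.982% or fewer of stromal cells had one in any library. Unthinned, the share was 83.3, 90, 85.7 and 95% of the early erythroid cells.

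The 250 bases before the start of 4 genes are shown because they are the label's markers outside the rule (Gfi1b, Pklr) or the ends of the progression described next (Cdk6 in the cells with least haemoglobin, Alas2 in those with most). They are RefSeq promoters on GRCm38.p6, the same assembly as mm10, read 5′ to 3′ on the gene's strand, and capitals mark GATA-type letters (AGATAA or TGATAA, either strand) and the palindromic E-box CACGTG. For Pklr the first of the 2 listed starts is given. The RefSeq starts used for Alas2 and Cdk6 lie 42 and 2408 bases inside the longer genes of the GENCODE annotation, so for Cdk6 the stretch shown is within the gene span given later.
Gfi1b (chr2:28621983-28622232, minus strand): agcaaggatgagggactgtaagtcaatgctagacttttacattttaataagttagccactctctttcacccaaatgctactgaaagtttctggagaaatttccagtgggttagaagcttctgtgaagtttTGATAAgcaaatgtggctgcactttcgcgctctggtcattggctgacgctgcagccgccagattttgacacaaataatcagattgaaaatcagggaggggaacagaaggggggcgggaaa
Pklr (chr3:89135892-89136141, plus strand): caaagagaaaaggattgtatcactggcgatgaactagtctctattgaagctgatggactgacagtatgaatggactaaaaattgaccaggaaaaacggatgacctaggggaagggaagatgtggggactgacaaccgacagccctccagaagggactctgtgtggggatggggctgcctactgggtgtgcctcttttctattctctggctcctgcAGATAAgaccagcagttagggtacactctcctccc
Cdk6 (chr5:3343643-3343892, plus strand): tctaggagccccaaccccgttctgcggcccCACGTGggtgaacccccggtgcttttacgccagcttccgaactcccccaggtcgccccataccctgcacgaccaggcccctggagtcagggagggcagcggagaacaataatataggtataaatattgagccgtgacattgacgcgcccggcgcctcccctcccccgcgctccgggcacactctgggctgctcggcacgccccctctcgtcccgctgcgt
Alas2 (chrX:150547167-150547416, plus strand): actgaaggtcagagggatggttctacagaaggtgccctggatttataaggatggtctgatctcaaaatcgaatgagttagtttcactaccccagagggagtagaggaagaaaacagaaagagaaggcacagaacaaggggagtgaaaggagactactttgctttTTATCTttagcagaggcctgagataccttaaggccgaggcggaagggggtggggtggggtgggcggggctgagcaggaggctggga
Gfi1b, Pklr and Alas2 each held a GATA-type match, on the opposite strand in Alas2, and Cdk6 held the E-box. Of 32851 promoters of this length, 16.6% held a GATA-type match and 6.02% the E-box, and a match is a run of letters and not a measured binding site.

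Early erythroid cells made up 1.05% (95% exact binomial interval 0.739 to 1.45%) of called cells in CONT and 0.695% (95% exact binomial interval 0.334 to 1.28%) in ABL of replicate 1. In replicate 2 they made up 0.292% (95% exact binomial interval 0.117 to 0.601%) in CONT and 0.787% (95% exact binomial interval 0.481 to 1.21%) in ABL. The share was thus lower in ABL than in CONT in replicate 1 and higher in replicate 2. When every cell was thinned to 2700 UMIs before the rule was applied, 0.877 and 0.556% remained in replicate 1 (30 and 8 cells) and 0.167 and 0.157% in replicate 2 (4 cells each), too few in replicate 2 to give a direction. With haemoglobin under 10%, the shares in replicate 1 were 0.585% in CONT and 0.556% in ABL. With 2 libraries a group no test was run, and a permutation test of 2 against 2 cannot pass 0.05. The gate on tdTomato sets how many blood cells are caught, and its part in the share was not tested. The share of Adipoq-positive stromal cells (2 or more Adipoq UMIs) moved too, from 38.7 to 33.4% in replicate 1 and from 81.9 to 12.7% in replicate 2. That class leaves out stromal cells with fewer Adipoq UMIs, so it does not give the share of all stroma. A denominator inside the erythroid cells avoids the stromal cells: with late erythroblasts as the rest, early cells were 8.41% and 7.3% of the erythroid total for the CONT and ABL libraries of replicate 1, and 13% (7 of 54) and 42.6% (20 of 47) in replicate 2. The intervals overlapped in replicate 1. In replicate 2 they ran from 5.37 to 24.9% in CONT and from 28.3 to 57.8% in ABL and did not overlap, though intervals of this kind cover counting error only. A setting added after seeing the data applied the rules to cells thinned to 2700 UMIs. The shares in replicate 2 were then 7.55% (4 of 53, 95% exact binomial interval 2.09 to 18.2%) in CONT and 12.9% (4 of 31, 95% exact binomial interval 3.63 to 29.8%) in ABL. These intervals overlapped, but 4 early cells in each library are too few to tell whether the gap depended on depth.

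**Figure D1:**
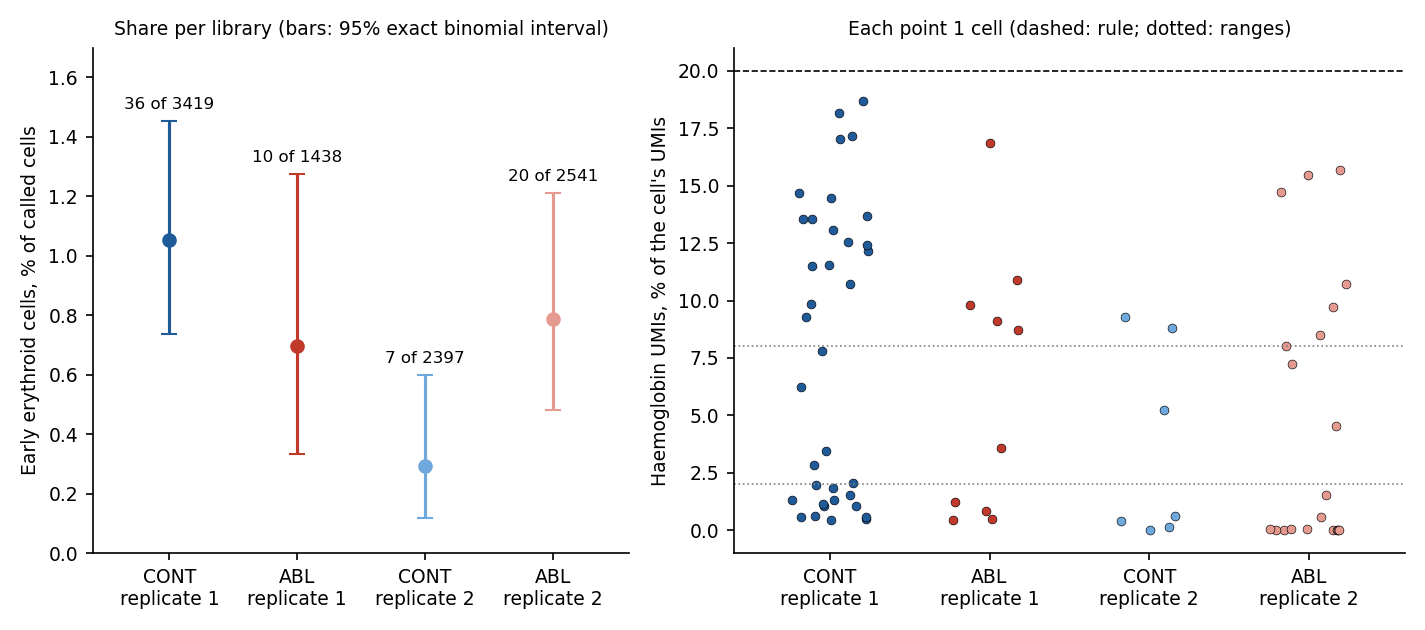
Left, early erythroid cells as a percent of called cells in each library, with 95% exact binomial intervals. Right, the percent of each cell's UMIs from the 4 globin genes, 1 point per cell, with the limit of the rule at 20% and the ranges' limits at 2 and 8%: 32 cells lie below 2%, 9 between 2 and 8% and 32 above 8%.

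The cells on either side of each threshold were counted. At the haemoglobin limit, 7 chosen cells lay between 15 and 20%, and 11 cells that met the other conditions lay between 20 and 25%. At the Car1 limit, 3 chosen cells held 2 or 3 UMIs and 5 otherwise eligible cells held 1. A single Klf1 UMI carried 3 chosen cells, and 13 eligible cells had none. The Adipoq limit had the most cells beside it: 26 chosen cells held 1 Adipoq UMI and 27 cells were left out for holding 2 or more. Of the member barcodes, 1 was also a called cell in another library, the other femur of replicate 1, and none was a member in both.

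Transcripts of other cell types were present, those of neutrophils most of all in replicate 1. All 10 neutrophil markers were detected there, and the list summed over the 4 libraries' early cells to 13966, 4595, 76.8 and 71.1 CPM, the top gene being S100a8 in replicate 1 (5601 and 1747 CPM) and S100a9 in replicate 2. Droplets of 300 UMIs or fewer, which hold free RNA, had 144304, 89692, 18976 and 11690.4 CPM for the same list. The 13 stromal markers other than Adipoq summed to 691, 1670.5, 248 and 1576 CPM in the early erythroid cells and 30633, 40161, 45269 and 46123 CPM in stromal cells, with Cxcl12, Col1a1, Apoe and Apoe the top gene. In ABL of replicate 2, 759 of 825 Apoe UMIs came from 3 cells that also held C1q transcripts, and without them the stromal list summed to 535 CPM there. Of 10 megakaryocyte markers, 7, 8, 6 and 5 were at 0, including Ppbp and Treml1 in every library, and the list summed to 25.4, 28.3, 51.2 and 78 CPM, with Pf4 at 68.4 CPM in ABL of replicate 2. The 3 cells with C1q transcripts held 37, 9 and 3 of the Pf4 UMIs in that library, and no other cell there held more than 1. Of 8 basophil and mast cell markers, 3, 7, 8 and 7 were at 0. Of 9 B lineage markers, 0, 7, 9 and 7 were at 0 (summed level 46.1, 20.2, 0 and 9.58 CPM), and of 7 T and NK markers, 5, 6, 6 and 5. The 13 monocyte and macrophage markers summed to 729.5, 332, 11.4 and 1432 CPM, with Lyz2 the top gene, and without those 3 cells and 1 cell of CONT replicate 1 rich in S100a8 and S100a9 they summed to 350.2, 332, 11.4 and 17 CPM. The part of such transcripts in the other early cells was not tested. C1q genes sat in few cells: 452 of 463 UMIs of C1qa, C1qb and C1qc came from 3 cells of the ABL library of replicate 2. In CONT replicate 1, 1 cell held over 50000 S100a8 and S100a9 UMIs per 1000000, namely 144029 among its 23780 UMIs. The neutrophil sums of early cells given here and below include it, and no sum was taken without it. These 4 cells met the rule and were kept, and results were also taken without them.

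Haemoglobin share was spread unevenly within the chosen cells. It was under 2% in 13 of 36, 4 of 10, 4 of 7 and 11 of 20 cells, from 2 to 8% in 5, 1, 1 and 2, and from 8 to 20% in 18, 5, 2 and 7. In all, 32, 9 and 32 cells fell in these ranges, which are ranges and not cell types. The lowest cell held 0.461, 0.447, 0.0174 and 0.00368% haemoglobin UMIs, in libraries whose droplets of 300 UMIs or fewer held 15, 8.48, 2.95 and 0.855%. The floor was thus higher in replicate 1, where free RNA held more globin. The median cell held 25342, 31708, 33404 and 42084 UMIs under 2% and 15501, 22391, 41328 and 24421 from 8 to 20%, more under 2% in 3 of 4 libraries. Since haemoglobin took part in the rule and set the ranges, the levels that follow are a description with no test.

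Cells under 2% haemoglobin held more Cdk6, Myb, Srm and Phgdh RNA. Genes were ranked by the smallest of the 4 libraries' log2 ratios between the ranges under 2% and from 8 to 20%, with 10 CPM added to each level, a rule set after the values were seen. Among 2714 genes averaging 50 CPM or more in the early erythroid cells, 86 (3.17%) were higher under 2% by over 1 log2 unit in all 4 libraries and 80 (2.95%) were higher from 8 to 20%. Cdk6, a kinase of the G1 phase that holds progenitors in cycle, led the first group with 304, 91.9, 249.8 and 228 CPM under 2% and 12.4, 0, 13.3 and 13.3 CPM from 8 to 20%. Srm, which makes spermidine, had 221, 217, 167 and 336 CPM under 2% and 4.12, 35.2, 0 and 0 CPM in the upper range. Phgdh, the first enzyme of serine synthesis, went from 99.1, 142, 72.9 and 178 CPM to 4.12, 0, 0 and 6.64 CPM. The ranking picked these 3 genes for their separation in all 4 libraries, so that separation is no further result. The same group held nucleolar and ribosome-building genes (Npm3, Gnl3, Wdr75), mitochondrial chaperone Hspd1, the metallothioneins Mt1 and Mt2, the cytokine Mif, and Myb, the factor that keeps progenitors dividing. Myb had 112, 83.6, 245 and 207 CPM under 2% and 20.6, 11.7, 0 and 6.64 CPM from 8 to 20%.

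Receptors and factors of the earliest stages came from a small number of cells. Kit, the stem cell factor receptor, gave 70 UMIs in 19 cells, 69 of them in cells under 2% haemoglobin, at 39.6, 8.36, 83.3 and 76.8 CPM in that range. Gata2, the factor that GATA1 replaces during erythroid maturation, gave 32 UMIs in 9 cells, all under 2%, and 27 of those UMIs came from 4 cells. With no Gata2 UMI, the ABL library of replicate 1 had a limit of 3 UMIs in 259773. Of the other progenitor genes, Flt3 and Mycn had no UMI in any library, and Cd34 was detected in ABL of replicate 2 and at 0 in the other 3 libraries, at 4.1 CPM. Runx1, another blood progenitor factor, had 23.1, 33.4, 78.1 and 30.7 CPM under 2% and 24.7, 23.4, 107 and 39.9 CPM from 8 to 20%. Ikzf1 was the most abundant of the 14 progenitor genes, at 93.8, 154, 188 and 109 CPM.

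Cells of 8 to 20% haemoglobin held more Slc4a1, Alas2 and Slc25a37 RNA. Slc4a1, the band 3 anion exchanger at chr11:102348824-102366203 (mm10), had 9.91, 0, 15.6 and 0 CPM under 2% and 692, 633, 1839.8 and 1109 CPM from 8 to 20%. Alas2, the first enzyme of erythroid haem synthesis, had 42.9, 33.4, 10.4 and 9.59 CPM and then 515, 328, 493 and 452 CPM. Slc25a37 (mitoferrin), which brings iron into mitochondria, had 26.4, 33.4, 72.9 and 17.3 CPM and then 350.0, 316, 1587 and 844 CPM. These 3 genes were picked by the same ranking, so the gap between the ranges in all 4 libraries is no further result. E2f2, Mgst3, the phosphatase Acp5, Trim10 and the tachykinin Tac2 were in the same group, and their log2 differences, under 2% minus 8 to 20%, ranged from -1.98 to -5.08 over the libraries. Alad, the enzyme after Alas2, differed less, with 399.6, 426, 344 and 320.4 CPM under 2% and 1182, 996, 1159.9 and 1076 CPM from 8 to 20%.

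For the erythroid genes Gata1, Gfi1b and Epor, the log2 ratios between the same ranges took both signs over the libraries. Nfe2 and Foxo3 were higher from 8 to 20% within every library. The share of all genes with 1 sign in every library was not counted, so these genes are examples. Gata1 had 152, 109, 88.5 and 127 CPM under 2% and 132, 152, 147 and 159 CPM from 8 to 20%. Gfi1b had 122, 83.6, 62.5 and 88.3 CPM and then 98.8, 164, 120.0 and 113 CPM. Epor had 79.3, 159, 57.3 and 99.8 CPM and then 94.7, 82, 53.3 and 146 CPM. Nfe2 had 42.9, 8.36, 20.8 and 23 CPM under 2% and 78.2, 58.6, 133 and 126 CPM from 8 to 20%. Foxo3 had 33, 33.4, 52.1 and 21.1 CPM and then 74.1, 82, 147 and 133 CPM. Tfrc, the transferrin receptor, had 112, 309, 302 and 255 CPM under 2% and 441, 410.1, 827 and 724 CPM from 8 to 20%, a higher level in the upper range within every library. Pklr went the other way, with 89.2, 66.9, 78.1 and 48 CPM and then 45.3, 35.2, 26.7 and 19.9 CPM. Bcl11a, which silences embryonic globin, also went down within every library, from 129, 184, 161 and 180.4 CPM to 41.2, 58.6, 66.7 and 66.4 CPM.

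**Figure D2:**
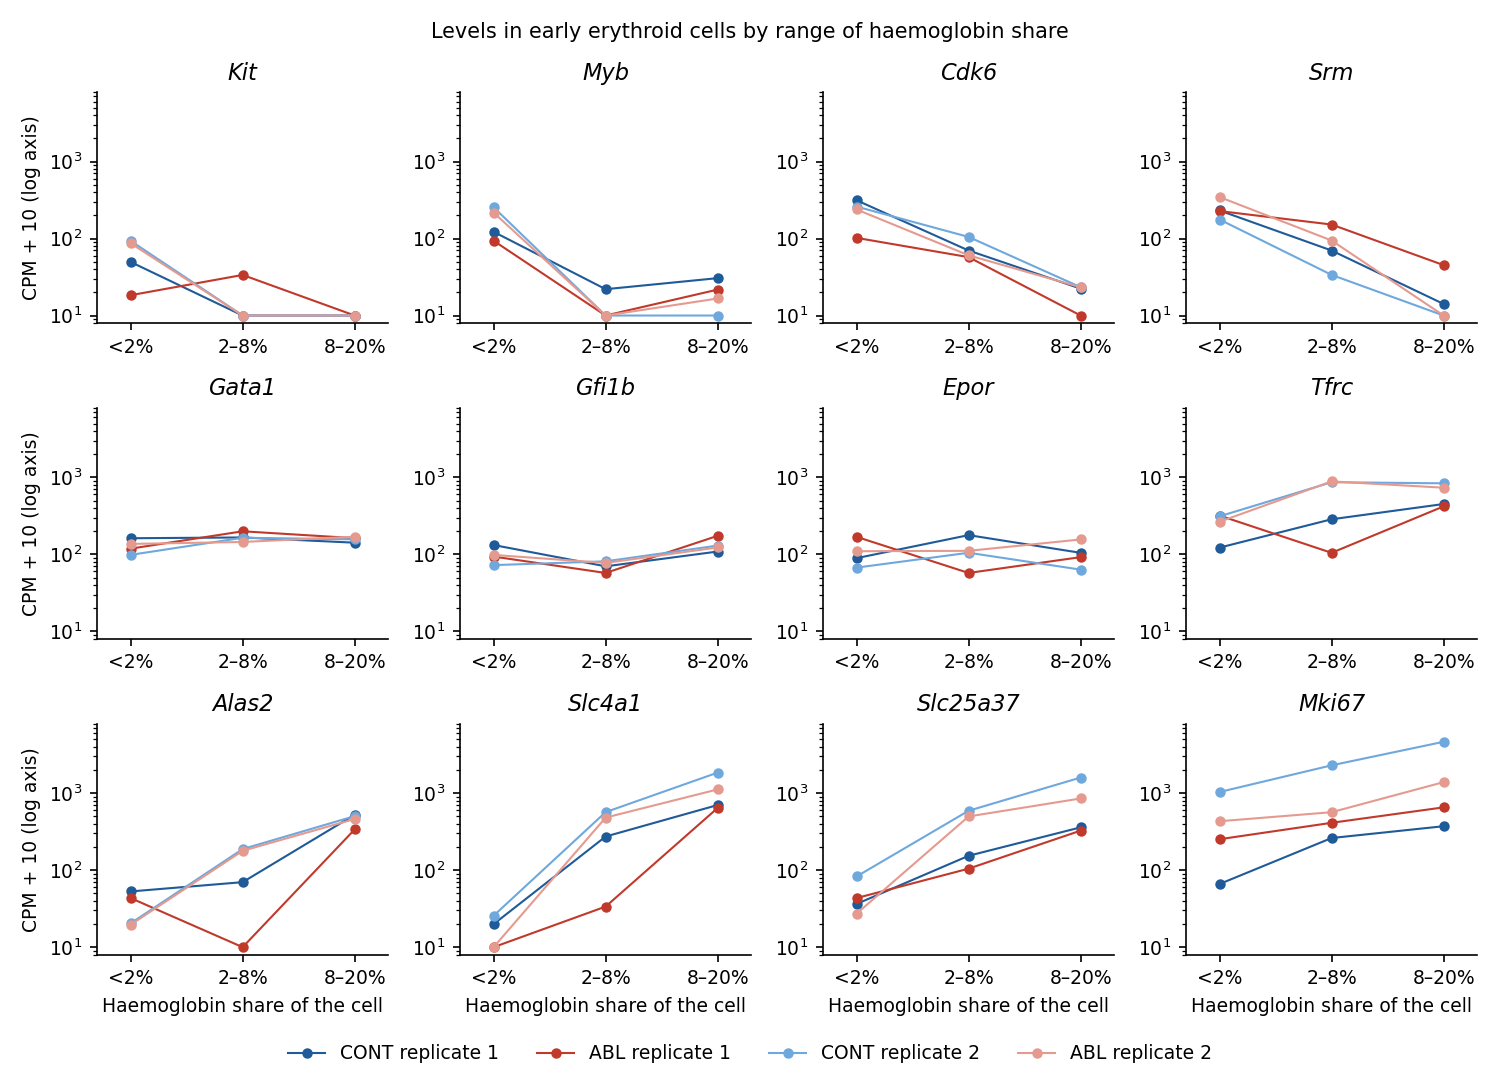
Levels (CPM plus 10, log axis) of 12 genes in early erythroid cells in the 3 ranges of haemoglobin share, 1 line per library. Myb, Cdk6 and Srm are highest under 2% in all 4 libraries and Kit in all but ABL replicate 1, Alas2, Slc4a1 and Slc25a37 are highest from 8 to 20%, and Gata1 stays between 88.5 and 189 CPM; the middle range holds 5, 1, 1 and 2 cells.

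Within the early erythroid cells, cell cycle RNA was more abundant from 8 to 20% haemoglobin than under 2%. After thinning, UMIs of 24 S phase genes per 10000 UMIs outside the globin genes had a median of 45.2, 44.9, 55.7 and 37.1 in cells under 2% and 77, 86.7, 59 and 84.8 from 8 to 20%. For 24 genes of the G2 and M phases, the medians were 26.1, 24.3, 35.3 and 22.3 and then 60.1, 49.6, 183 and 72.8. Both sums were higher in the upper range in all 4 libraries, with 4 and 2 cells in CONT replicate 2. Late erythroblasts, which hold fewer UMIs outside globin, had S phase medians of 21.4, 0, 27.8 and 24, below both ranges. Their G2 and M medians were 76.9, 58.3, 250 and 161, above both. Rrm2, the ribonucleotide reductase subunit that supplies deoxynucleotides, had 360.0, 401, 260.3 and 223 CPM under 2% and 1334, 1453, 787 and 1009.6 CPM in the upper range. Mki67, a marker of dividing cells, differed between replicates too. It had 56.1, 242, 1025 and 422 CPM under 2% and 362, 644, 4639.6 and 1382 CPM from 8 to 20%, with both libraries of the version 3 chemistry above both of version 2 in each range.

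The nearest population, late erythroblasts, was then compared with the early cells. Cdk6, Srm, Mthfd1 and Npm3 were higher in the early cells, and most tested genes of the haem, membrane, maturation and mitosis lists were lower. Summed counts of both classes were fitted for the 3 libraries with at least 10 cells of each (CONT and ABL of replicate 1, ABL of replicate 2), with the library as a block. Of 5257 genes, 1284 (24.4%) were higher and 1459 (27.8%) lower in the early cells at an edgeR adjusted p under 0.05, and the median log2 fold change was -0.02. The classes were cut on globin share, and early cells also had to hold Klf1 and Car1, which 117 of 593 late erythroblasts did, so genes that follow globin, Klf1 or Car1 in these cells differ between the classes by construction. The counts and fold changes below describe this split, haem, membrane and maturation genes included, and no p is given for a single gene. The genes of the rule were left out. Without ABL replicate 2, 1251 genes were higher and 1463 lower.

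The largest rises by the naming rule included Rangrf, Mthfd1, Cdk6, Srm, Fam132a, C1qbp, Lyar, Hspe1, Npm3 and Mybbp1a, with log2 fold changes from 3.41 to 4.34. Mthfd1, a folate enzyme that supplies one-carbon units for nucleotides, had 92.2, 97.1, 202 and 192 CPM in the early cells and 6.79, 2.35, 14.7 and 0 CPM in late erythroblasts (log2 fold change 4.17, SE 0.42). Cdk6, at chr5:3341485-3531008 (mm10), had 159, 52.6, 162 and 169.6 CPM and 12.9, 2.35, 0 and 0 CPM (log2 fold change 3.78, SE 0.38). Both genes were named for the size of this difference. Late erythroblasts of ABL replicate 2 held no UMI of either gene, so both fitted folds depend on the prior count and are no bounds. Hspe1, the mitochondrial co-chaperonin, had 759.7, 1007, 942 and 1615 CPM against 74.7, 79.9, 16.8 and 79.7 CPM (log2 fold change 3.50, SE 0.21), and its partner Hspd1 had a log2 fold change of 3.12. C1qbp, a mitochondrial matrix protein, and the nucleolar proteins Lyar, Npm3 and Mybbp1a had log2 fold changes of 3.55, 3.51, 3.43 and 3.41. Pklr was higher as well: late erythroblasts held 2.04, 2.35, 2.1 and 5.31 CPM of it. Only 0.765, 0.787, 2.13 and 3.7% of them had a Pklr UMI, so no fold is given.

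Erythroid transcription factors were lower more often than higher. Of 16 erythroid factors tested, 3 were higher and 9 lower in the early cells, where 24.4% of all genes were higher and 27.8% lower, and the median log2 fold change was -0.85. The 3 that were higher were Myb (63.6, 44.5, 134 and 149 CPM, and 9.5, 4.7, 0 and 0 CPM in late erythroblasts), Bcl11a (log2 fold change 2.78) and Ldb1, the bridging protein of the GATA1 complex (1.73). Lower were Nfe2, a factor that drives globin and haem genes (55.6, 36.4, 45.5 and 45.1 CPM against 282, 299, 349 and 271 CPM, log2 fold change -2.76, SE 0.22), Sox6 (-2.89), E2f2 (-2.49), Klf3 (-2.38), Foxo3 (-2.25), Tal1 (-1.28), Lmo2 (-1.12) and the GATA1 cofactor Zfpm1 (-1.08). Gata1 and Gfi1b did not pass: Gata1 had 145, 138, 117 and 134 CPM and 191, 183, 193 and 133 CPM (log2 fold change -0.48, SE 0.20), and Gfi1b a log2 fold change of -0.28. The Gata1 result passed under 5 of the alternatives.

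Against 24.4% of all genes higher and 27.8% lower, the erythropoietin, haem and iron lists were mostly lower. In the erythropoietin pathway, 5 of 7 tested genes were lower in the early cells and 1 higher. Epor itself had 97, 113, 65.4 and 109 CPM in early cells and 153, 162, 206 and 165 CPM in late erythroblasts (log2 fold change -0.78, SE 0.20), and it missed the threshold without CONT replicate 1 and in DESeq2. The survival gene Bcl2l1, which encodes Bcl-xL, had 7.95, 8.09, 14.2 and 4.1 CPM against 319.7, 581, 124 and 122 CPM (log2 fold change -5.58, SE 0.30). Pim1, a kinase induced downstream of STAT5, differed by -4.17. Bcl2l1 was near the value of 3 UMIs in early cells, and Epor was far above it in all 4 libraries. All 11 haem genes that passed of 12 tested were lower (list median -1.52), led by Alas2 with 227, 129, 154 and 114 CPM against 3896, 6467, 2179.8 and 1779 CPM (log2 fold change -4.67, SE 0.28). Fech, which inserts iron, differed by -2.82, Urod by -2.10 and Alad by -1.36. The mitochondrial carrier gene Tmem14c was the one that did not pass (-0.02), and its sign changed with the settings. Iron genes gave 8 lower and 1 higher of 12. Slc25a37 (-3.74), the ferritin chains Fth1 (-1.13) and Ftl1 (-1.32), Glrx5 (-1.24) and Tfrc (-1.28) were lower, and Tfr2, the second transferrin receptor, was higher (42.9, 68.8, 34.1 and 54.7 CPM against 11.5, 18.8, 10.5 and 5.31 CPM).

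Structural and maturation genes were lower almost throughout, where 27.8% of all genes were lower and 24.4% higher. Of 20 membrane and skeleton genes tested, 19 were lower and 0 higher (median -1.87), the exception being Xk (0.06). Slc4a1 had 307, 222, 535 and 267 CPM against 2402, 2567, 4989.7 and 2263 CPM (log2 fold change -3.36, SE 0.19). Tmod1, which caps actin filaments, differed by -3.79. Among red cell enzymes 11 of 15 were lower and 1, Pklr, was higher. Bpgm, which makes the bisphosphoglycerate that loosens oxygen from haemoglobin, had 63.6, 36.4, 22.8 and 20.5 CPM against 1135, 2358, 386 and 249.6 CPM (log2 fold change -4.71, SE 0.32), and Gpx1, Prdx2 and Car2 differed by -2.45, -1.88 and -1.68. All 16 tested genes of terminal maturation were lower (median -3.04). Members near 0 in early cells, such as Xpo7, passed the low-count filter through late erythroblasts and could only be called lower, so this count is a description. Xpo7, an exportin used in nuclear condensation, had 6.36, 12.1, 2.85 and 4.1 CPM against 612, 745, 546 and 186 CPM (log2 fold change -6.25, SE 0.29). Fam46c differed by -4.59. The naming rule also picked Tmcc2 (-6.18, 28.6, 16.2, 14.2 and 10.9 CPM against 1784, 2299, 1174 and 361 CPM), the theta-globin gene Hbq1b (-4.81) and Spp1 (-5.13). It picked Apol11b, Slfn14, Rsad2, Sowaha and the fatty acid receptor gene Cd36 too, but few UMIs stood behind their early values. In the early cells of the 4 libraries Apol11b had 2, 0, 5 and 0 UMIs, Slfn14 1, 0, 1 and 2, Rsad2 13, 0, 1 and 0, Sowaha 1, 1, 2 and 6 and Cd36 9, 1, 1 and 2, so no fold is given for them. Xpo7 had 4, 3, 1 and 3 UMIs and Bcl2l1 5, 2, 5 and 3, and their fitted folds depend on the prior count and are no bounds. These genes passed the low-count filter through their values in late erythroblasts. Spp1, a bone matrix gene, rested on late erythroblasts of ABL replicate 1 (5039.8 CPM, and 3228 CPM in that library's droplets of 300 UMIs or fewer), and without that library its log2 fold change was -2.29.

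The S phase list gave no larger share of calls than all genes, and the list of the G2 and M phases was mostly lower. Of 24 S phase genes, 5 were higher (Cdca7, Ung, Hells, Dut, Gins2) and 4 lower (Rrm2, Slbp, Tk1, Tyms), against 24.4% and 27.8% of all genes, with a median log2 fold change of 0.08. Of 24 genes of the G2 and M phases, 21 were lower and 0 higher (median -1.29). Mki67 had 200.3, 409, 2100.1 and 631 CPM in early cells against 831, 823, 7275 and 2337 CPM in late erythroblasts (log2 fold change -1.87, SE 0.21), and the survivin gene Birc5 differed by -1.57. Replication histone genes, a list chosen after their values were seen, were lower for all 33 of 33 tested (median -2.58). The cell cycle inhibitors Cdkn1b (-2.85) and Cdkn2c (-2.00) were lower and Trp53 was higher (165, 198, 191 and 183 CPM against 69.2, 75.2, 50.4 and 63.7 CPM). Of 11 heat shock and chaperone genes, 6 were higher and 2 lower, including Hsp90ab1 (1.95) and Hspa8 (1.01).

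Some of the lower genes belong to other cell types, where 27.8% of all genes were lower. All 12 tested stromal markers (median -2.59), 8 of 8 neutrophil markers (-2.24) and 9 of 9 monocyte and macrophage markers (-1.91) were lower in the early cells. The immediate early genes, which are not markers of a cell type, were lower for 15 of 15 (-2.59). Once the globin genes were left out, late erythroblasts held fewer UMIs per cell outside globin, and their levels of these lists were higher in every library: the neutrophil list summed to 72763, 20827, 195 and 159 CPM against 13966, 4595, 76.8 and 71.1 CPM in early cells. Its part in the falls of other genes was not tested. The reporter transcript, tdTomato with its WPRE tail, behaved alike, with 17.5, 24.3, 5.69 and 104 CPM in early cells, 100.4, 162, 14.7 and 483 CPM in late erythroblasts (log2 fold change -2.59, SE 0.23), 44.9, 26.8, 22.1 and 175 CPM in granulocyte precursors and 1619, 1372, 1085 and 1175 CPM in stromal cells. After thinning it was found in 1 of 36, 1 of 10, 0 of 7 and 2 of 20 early cells, at or below the share in granulocyte precursors (14.6, 11.5, 5 and 32.6%). Reporter UMIs were uneven among the cells of ABL replicate 2, where 6 of 20 cells held 68 of the 76 UMIs and the highest held 17. Where this RNA came from was not tested.

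**Figure D3:**
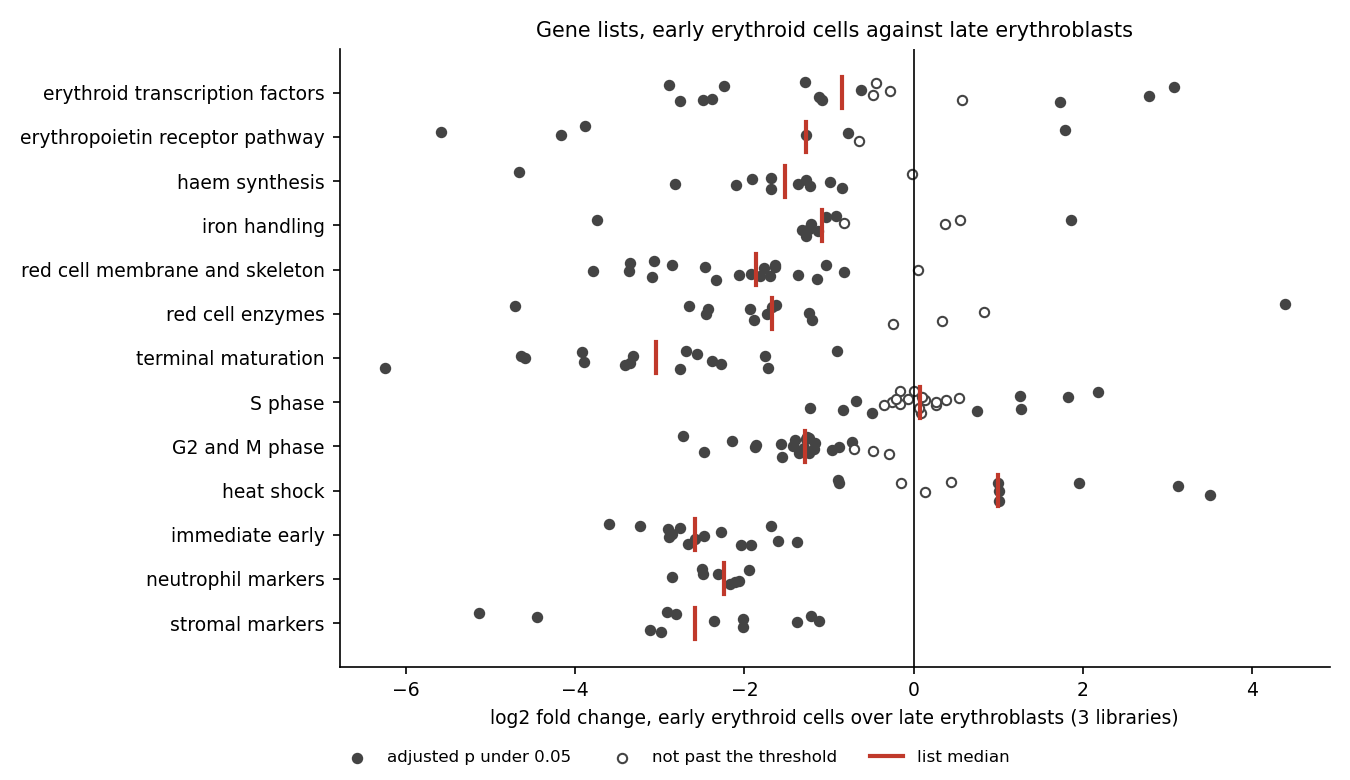
Log2 fold change of early erythroid cells over late erythroblasts for the tested genes of 13 lists, 1 point per gene, filled at an edgeR adjusted p under 0.05, with each list's median as a red bar. Medians run from -3.04 for terminal maturation to 0.99 for heat shock, and that of S phase is 0.08.

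Promoters of the 2 groups were searched for the same letters. Of 1219 promoters of 1012 matched genes that were higher in the early cells, 9.6% held AGATAA or TGATAA and 11.9% held CACGTG. Of 1435 promoters of 1100 matched genes that were lower, 10.3% and 7.74% did. The shares over all 32851 promoters of 27025 genes, tested or not, were 16.6% and 6.02%, and no share was taken over tested genes alone. The E-box share was the highest in genes higher in the early cells, and both groups were below all promoters in the GATA-type letters. Of the 10 named genes of each direction, 8 were matched. GATA-type letters were found in 5 of 13 promoters (38.5%) of the 8 lower genes and 0 of 8 promoters of the 8 higher genes. Some of the 13 are other starts of the same gene, so they are not separate genes. No test was made.

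The last comparison asked whether ablation of the marrow changed the early erythroid cells. Heat shock genes Hspa1a and Hspa1b and 8 replication histone genes were lower in ABL. Another 7 genes, Col1a1 among them, were higher, and no gene of the erythroid lists passed. CONT of replicate 2 held 7 cells, below the minimum of 10 set for this fit, so the fit was made without that minimum, a choice made after the numbers were known. Of 5379 genes, 7 (0.13%) were higher and 10 (0.186%) lower in ABL with the replicate as a block (edgeR adjusted p under 0.05, 1 residual degree of freedom), and 305 had an unadjusted p under 0.05. Without the replicate block 0 genes passed in edgeR, 49 had an unadjusted p under 0.05, and DESeq2 with the block called 1 higher and 4 lower. Removing the 1 early cell that Scrublet called a doublet left 1 gene higher and 1 lower. Without ABL replicate 2, the library without Xist, and so without the block, 4 were higher and 15 lower.

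Hspa1a, an inducible HSP70 chaperone at chr17:34969190-34972156 (mm10), had 361 CPM in CONT and 12.1 CPM in ABL for replicate 1, then 270.3 CPM in CONT and 54.7 CPM in ABL for replicate 2 (log2 fold change -2.97, SE 0.43, edgeR adjusted p = 0.0044). Its near-identical neighbour Hspa1b, with which it can share reads, had 114, 12.1, 282 and 35.6 CPM (log2 fold change -2.95, SE 0.36, edgeR adjusted p = 8.4e-04). Both ABL values lay below both CONT values for each gene, but 1 cell held most of the CONT replicate 2 value. In CONT replicate 2, 76 of 95 Hspa1a UMIs and 67 of 99 Hspa1b UMIs came from 1 cell, and without the top cell of each library the levels were 266, 8.8, 71.1 and 19.8 CPM for Hspa1a and 95.1, 9.08, 119.8 and 7.07 CPM for Hspa1b. In the range of 8 to 20% haemoglobin, Hspa1a was read at 259, 23.4, 13.3 and 179 CPM, higher in ABL than in CONT in replicate 2. The other chaperones tested did not pass. In droplets of 300 UMIs or fewer Hspa1a went the same way, from 397 to 278 CPM within replicate 1, and in replicate 2 it moved from 477 to 128 CPM. In stromal cells it went from 343 to 154 and from 286 to 78.6 CPM. In late erythroblasts it was read at 149, 98.7, 37.8 and 53.1 CPM, lower in ABL in replicate 1 and higher in replicate 2. The part of free RNA in the early cells' result was not tested.

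Of 32 histone genes tested, 8 passed, all lower, where 0.13% of all genes tested were higher and 0.186% lower. All 32 had a negative sign (median -1.61, against -0.00131 over all genes), and the list was named after its values were seen. Hist1h1e, a linker histone, had 28.6 CPM in CONT and 0 CPM in ABL for replicate 1, then 1702 CPM in CONT and 238 CPM in ABL for replicate 2 (log2 fold change -2.85, SE 0.45, edgeR adjusted p = 0.0066). Hist1h2ap, the most abundant, did not pass and had 2715, 1339, 4152 and 1890.4 CPM. Summed over 69 histone genes, the early cells held 3784, 1946, 18727 and 5552 CPM. ABL was lower within each replicate, and CONT of replicate 2 stood highest. In late erythroblasts the same sum was 7558, 11217, 80246 and 33157 CPM, higher in ABL in replicate 1 and lower in replicate 2, and in granulocyte precursors 2186, 2492, 16588 and 4607 CPM. Without CONT replicate 2 and without the block, all 8 called histone genes changed sign. No S phase gene passed (0 of 24, median -0.15), nor did a gene of the G2 and M phases (0 of 24, of which 23 had a negative sign, median -0.36).

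The genes higher in ABL were Col1a1, Col1a2, Sparc and Fn1, which encode bone and connective tissue matrix, and C1qa, Cd74 and Sirpa, which mark macrophages and antigen-presenting cells. By list, 3 of 10 tested stromal markers and 1 of 3 tested monocyte and macrophage markers (C1qa) passed, where 0.13% of all genes tested were higher. Col1a1, the main collagen of bone, had 12.7 CPM in CONT and 303 CPM in ABL for replicate 1. In replicate 2 it had 2.85 CPM in CONT and 64.3 CPM in ABL. These levels were 8, 75, 1 and 47 UMIs. Droplets of 300 UMIs or fewer had 467, 5785, 364 and 11727 CPM, granulocyte precursors 20.7, 314, 1.47 and 304 CPM and stromal cells 350.1, 5493, 182 and 3291 CPM. The rise was thus present in free RNA and in each other class of the same libraries, and the part of free RNA in the early cells' result was not tested. C1qa, a complement gene of macrophages, was at 0 in both CONT libraries, with 0, 20.2, 0 and 249 CPM. C1qa, Col1a1, Cd74, Sirpa and Fn1 passed the low-count filter through ABL, where they were high, and could only be called higher. No p or fold is given for them, and the counts by list above are a description. In ABL replicate 2, 3 cells held 452 of the 463 C1q UMIs. Without these cells and the neutrophil-marked cell, C1qa, Cd74, Sirpa and Fn1 fell under the low-count filter and were not tested. Col1a1, Col1a2 and Sparc kept their calls and all 10 lower genes kept theirs, among 10 genes higher and 22 lower.

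**Figure D4:**
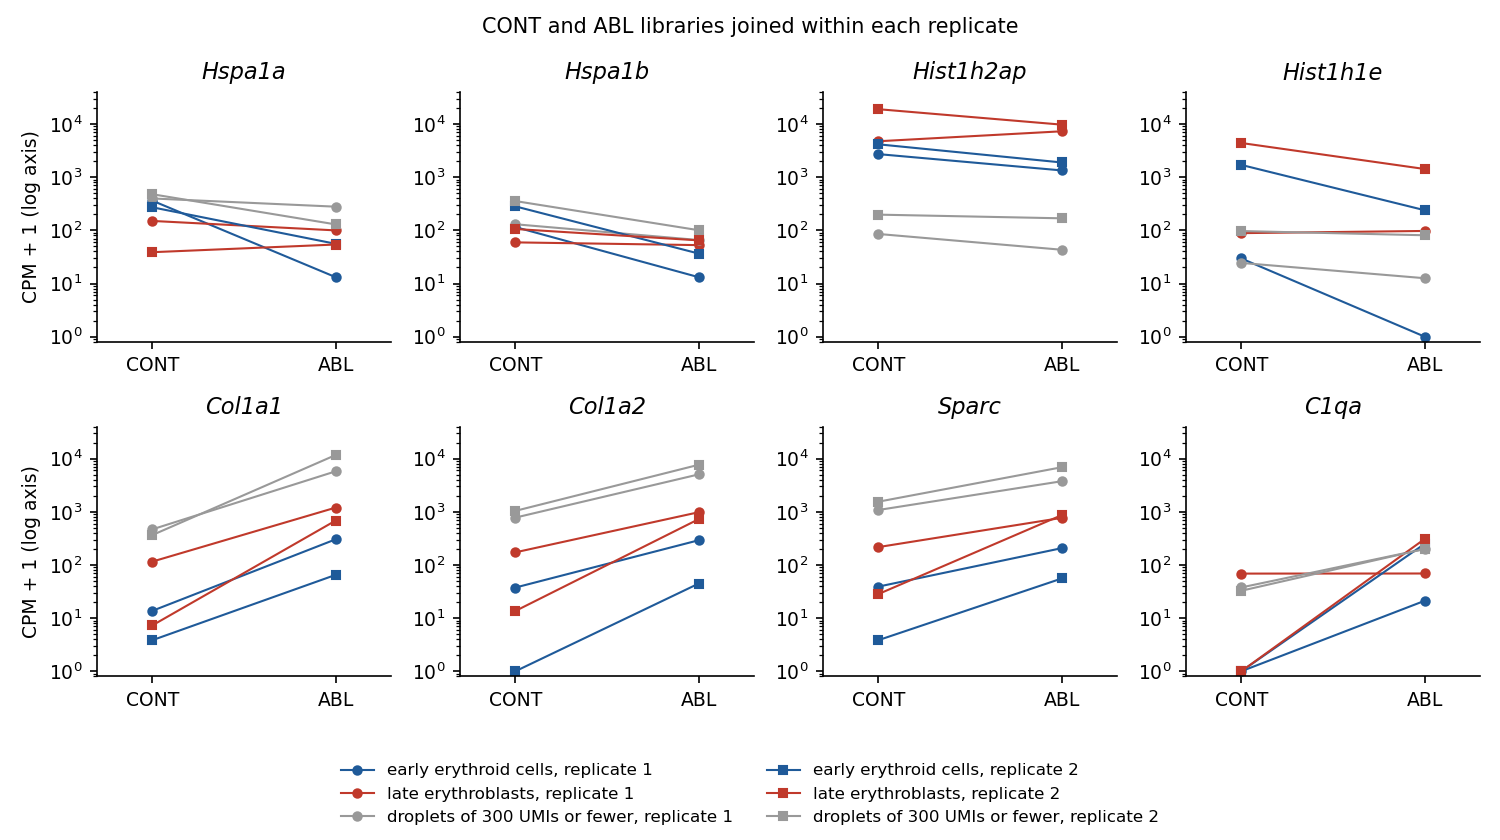
Levels (CPM plus 1, log axis) of 8 genes in CONT and ABL, joined within replicate, for early erythroid cells, late erythroblasts and droplets of 300 UMIs or fewer. Hspa1a and Hspa1b are lower in ABL in the early cells of both replicates, Hist1h2ap goes down in early cells of both replicates but up in late erythroblasts of replicate 1, and Col1a1, Col1a2 and Sparc go up in all 3 kinds of sum.

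Erythroid genes gave no call between CONT and ABL, in a fit where 0.13% of all genes were higher and 0.186% lower. At those shares lists of this size would hold few calls or none, so no conclusion about erythroid genes is drawn from their absence. None of 17 erythroid transcription factors passed (median -0.07), nor of 12 haem synthesis genes (-0.13), 13 iron genes (0.05), 6 genes of the erythropoietin pathway (0.13), 19 membrane genes (-0.31), 15 red cell enzymes (-0.03) or 12 maturation genes (-0.29). For Gata1 the log2 fold change was 0.10 with an SE of 0.30, for Epor 0.51 with 0.33 and for Alas2 -0.58 with 0.30. Differences within such errors could not be detected with 2 libraries a group. The part of cell number, 7 to 36 a library, and of depth in those errors was not tested.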

How the data were processed

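The deposited files hold raw UMI counts per gene and droplet, which the authors made with Cell Ranger on mm10 with reporter sequences added and analysed further with Seurat (versions not given in the sources used here). Library totals were 44784072 and 22889380 UMIs for CONT and ABL of replicate 1, and 40486876 and 41536563 for replicate 2. Called cells had at least 500 genes, at most 20% mitochondrial UMIs and at least 2700 UMIs in replicate 1, and at least 1000 genes, at most 15% and at least 4000 UMIs in replicate 2. The UMI minimums were not the study's. Cells, gene lists and tests were chosen with earlier results of these data known.

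Counts were summed per library and class and tested with edgeR 4.0.16 (quasi-likelihood, TMM, filterByExpr, Benjamini-Hochberg threshold 0.05), with DESeq2 1.42.0 as an alternative, in R 4.3.3. Both fits were tested on simulated data, and no statement here rests on the outcome. Cells are not replicates, and p-values measure the spread between libraries. Each SE is the absolute log2 fold change divided by the square root of the quasi-likelihood F. It is thus an approximate value and not a standard error estimated by the model. Named genes were the 10 largest rises and 10 largest falls that passed, averaged 50 CPM or more and had 1 direction in every replicate or library, plus genes of the lists. Per the study, CONT and ABL of 1 replicate number are contralateral femurs, made with 1 chemistry, though sex-linked RNA did not match within either replicate. The difference between replicates correlated across genes between CONT and ABL (r = 0.613 over 5379 genes, which are not independent), and the block was kept as planned. Scrublet (scanpy 1.11.5) called 76, 17, 1 and 14 doublets, under 0.5% in CONT replicate 2, where it did not work, and doublets were left in. Some genes of the lists are not reported here by name.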

Additional observations from a re-analysis of the deposited data

Results flagged for a closer look

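The share of early erythroid cells moved in opposite directions between the replicates. ABL minus CONT was -0.358 percentage points in replicate 1 (10 of 1438 against 36 of 3419 called cells) and 0.495 percentage points in replicate 2 (20 of 2541 against 7 of 2397). It was picked out because the 2 replicates had opposite signs, and the difference between them was not tested, since each value rests on 1 library. With haemoglobin under 10% the replicate 1 shares were 0.585% in CONT and 0.556% in ABL. With the rule applied to cells thinned to 2700 UMIs the shares were 0.877% in CONT and 0.556% in ABL of replicate 1, then 0.167% in CONT and 0.157% in ABL of replicate 2, where 4 cells in each library were too few to give a direction.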

How the results depend on the processing

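The comparison of ABL with CONT depended on the processing. Against 7 genes higher and 10 lower, the fit without the replicate block gave 0 and 0. Leaving out 1 library at a time, also without the block, gave 1 to 82 higher and 2 to 34 lower. DESeq2 gave 1 and 4, library totals without TMM 20 and 25, no low-count filter 41 and 21, the stricter rule on Klf1 and Car1 17 and 21, the study's filter alone 15 and 19, thinned cells 0 and 2 (of 618 genes tested against 5379, neither of the 2 among the 10), and removal of Scrublet doublets 1 and 1. Leaving out globin genes gave 18 lower, and leaving out the 4 cells with other types' transcripts gave 22 lower. With 1 residual degree of freedom, and with the lone library of a left-out arm assumed to vary like the others, these counts are unstable, and the cause was not tested. Over the fits without 1 library, the log2 fold changes ran from -11.31 to 2.01 for Hist1h1e, -8.37 to 1.83 for Hist1h3b, -6.41 to 3.57 for Hist1h3c, -10.20 to 3.34 for Hist1h2ab, -9.03 to 1.39 for Hist1h1d, -4.59 to 2.73 for Hist1h1a, -4.58 to 0.21 for Hist1h1c and -5.25 to 1.60 for Hist2h2ac, the upper end in each being the positive value without CONT replicate 2.

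Of the comparison with late erythroblasts, DESeq2 called 840 genes higher and 1069 lower. The balance of 1284 higher to 1459 lower turned with the scaling: without TMM it was 1557 to 1283, with the median of all genes moving from -0.02 to 0.15, and with globin kept in library sizes 1358 to 1274. Tmem14c, which did not pass, ran from -0.18 to 0.22 over the fits without 1 library, and became positive in DESeq2 (0.00627), without TMM (0.16), without the filter (0.12) and against late cells of 40% or more haemoglobin (0.33). Xk, which did not pass, ran from -0.044 to 0.17 and was negative with CONT replicate 2 kept (-0.15). The share in CONT replicate 1 was 0.585% for haemoglobin under 10%, against 0.556% in ABL, and when the rule was applied to thinned cells the shares in replicate 2 were 0.167% in CONT and 0.157% in ABL (4 cells each, too few to give a direction), while the other 5 rules for cells gave 0.209 to 0.292% in CONT and 0.63 to 0.791% in ABL. Libraries of 7 to 36 cells limit every value.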
